A study of Homo sapiens with 6 samples.

Results

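The ZBTB genes encode transcription factors that pair an N-terminal BTB domain (also called POZ), which forms dimers and binds corepressors, with C-terminal C2H2 zinc fingers that bind DNA. Most are known as repressors that recruit the NCoR, SMRT, BCOR or SIN3 complexes and their histone deacetylases, and a few, such as ZBTB17, also activate genes. They are best known from blood cell development, from the reading of methylated CpG sites and from telomeres, and ZBTB20 is known in mouse liver as the repressor of alpha-fetoprotein.

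The members are all rows of the count table whose Ensembl identifier pairs with a protein-coding gene symbol of ZBTB followed by a digit. They number 42 of 20263 rows, and all 42 protein-coding genes of that name in the RefSeq table have a row. One of them, ZBTB8OS, is named for its place opposite ZBTB8A and encodes archease, a cofactor of tRNA splicing without a BTB domain or zinc fingers. It is kept by the rule, and counts without it are given below.

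Expression was measured by RNA sequencing of HCCLM3 cells, a human hepatocellular carcinoma line. The groups were cells treated for 24 h with CC-885 (3 libraries) and cells given the solvent DMSO (3 libraries). CC-885 is a small molecule that binds cereblon (CRBN), through which a CUL4 ubiquitin ligase recognises its substrates, and so brings proteins such as the translation termination factor GSPT1 to the ligase. Many proteins taken up in this way carry C2H2 zinc fingers. The sources used here give no dose and do not say whether the libraries are separate cultures, so p-values cover only how far these libraries vary, and that variation may be technical.

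Total counts per library ran from 30432509 to 39809131. Libraries of the same group correlated at 0.977 or more in log2 CPM (counts scaled to the library total and by TMM factors), and libraries of different groups at 0.946 or less. The labelled liver cell type was checked against 10 hepatocyte markers: ALB, AFP, APOB and TTR were at 0 in all 6 libraries, while the keratins KRT8 and KRT18 carried nearly all of the list's summed level (1361 to 1655 CPM in CC-885 libraries and 1806 to 2211 CPM in DMSO libraries). Among 8 markers of blood, endothelial and fibroblast cells PTPRC and CD3E were at 0, and the summed level was 154 to 189 CPM in CC-885 libraries and 159 to 190 CPM in DMSO libraries. In that list CDH5 and COL1A1 were higher and PDGFRB was lower with CC-885 (14.1 ± 0.37 against 70.9 ± 10.7 CPM, mean ± SD, n = 3 each, as throughout). The part of these markers in the results below was not tested, and in bulk RNA fewer cells of a type and less RNA per cell cannot be told apart.

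With CC-885, ZBTB10, ZBTB49, ZBTB43, ZBTB11 and ZBTB2 rose more than 2-fold, and ZBTB7C, which was barely expressed, fell more than 2-fold. ZBTB32, lower still in level, had a fitted fall of more than 2-fold, but it passed the filter on low counts only through the DMSO libraries. The counts of lower members below include it. Of the 42 members 40 passed the filter on low counts and were tested. At an adjusted p below 0.05 (edgeR quasi-likelihood test, adjusted over all 13444 tested genes) 12 were higher, 6 were lower and 22 did not pass. Over all tested genes 52.6% passed, 25.8% higher and 26.8% lower. Of the tested members 45.0% passed, 30.0% higher and 15.0% lower, and these shares of 40 genes were not tested against the background. By at least 2-fold 5 members were higher and 2 lower, beside 8.23% and 10.3% of all tested genes. The median log2 fold change of the tested members was 0.13 and that of all tested genes -0.04, and the median absolute log2 fold change was 0.50 in both. Without ZBTB8OS the counts were 12 and 6 of 39.

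The groups did not overlap in 24 of the 40 tested members and in 61.1% of all tested genes. All called members except ZBTB20 were among the 24. Summed over the 42 members the level was 1667, 1758 and 1919 CPM in CC-885 libraries and 1388, 1320 and 1532 CPM in DMSO libraries. Each CC-885 sum lay above each DMSO sum. ZBTB38, ZBTB11, ZBTB10 and ZBTB1 added 58.3, 52.4, 47.3 and 44.4 CPM to the difference in means, which was 368 CPM in all, and ZBTB7B took away the most (-28.8 CPM).

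**Figure D1:**
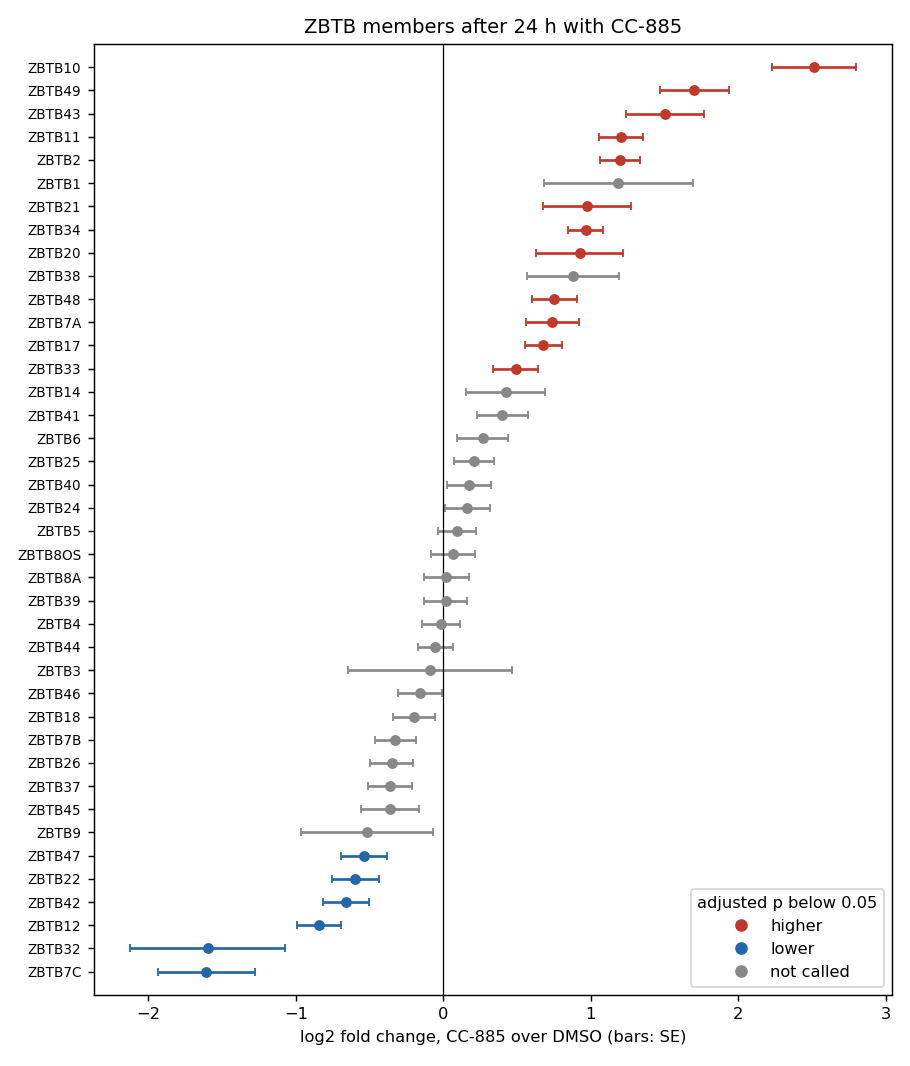
Log2 fold change (CC-885 over DMSO, horizontal axis) of the 40 tested members with its standard error, ordered by size; red members were called higher, blue ones lower and grey ones did not pass. ZBTB10 stands at the top with 2.51 and ZBTB7C at the bottom with -1.61, and ZBTB1 and ZBTB38 lie among the higher members without a call.

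Promoter windows of 4 members that rose are shown, because 3 of them hold the cAMP response element TGACGTCA, the site of CREB and ATF factors, while ZBTB2, the member with the smallest p, does not. They are RefSeq sequences of build GRCh38.p14, from 250 bases before to 50 bases after an annotated start, written 5′ to 3′ on the gene's strand. Capitals mark the element in ZBTB11, ZBTB21 and ZBTB48, and the GC box GGGCGG (both strands searched) in ZBTB2. The windows of ZBTB11, ZBTB21 and ZBTB48 also hold GGGCGG on either strand (1, 3 and 2 matches), which is left in small letters there. The windows lie at chr3:101677083-101677382 (minus strand, ZBTB11), chr21:42010311-42010610 (minus strand, ZBTB21), chr1:6579744-6580043 (plus strand, ZBTB48) and chr6:151391510-151391809 (minus strand, ZBTB2).
ZBTB11: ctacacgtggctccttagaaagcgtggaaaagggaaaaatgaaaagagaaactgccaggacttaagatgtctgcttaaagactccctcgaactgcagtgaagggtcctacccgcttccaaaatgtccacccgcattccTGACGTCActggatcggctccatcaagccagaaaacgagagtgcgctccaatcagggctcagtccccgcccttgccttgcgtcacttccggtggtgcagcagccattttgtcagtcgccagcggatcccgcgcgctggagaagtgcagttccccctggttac
ZBTB21: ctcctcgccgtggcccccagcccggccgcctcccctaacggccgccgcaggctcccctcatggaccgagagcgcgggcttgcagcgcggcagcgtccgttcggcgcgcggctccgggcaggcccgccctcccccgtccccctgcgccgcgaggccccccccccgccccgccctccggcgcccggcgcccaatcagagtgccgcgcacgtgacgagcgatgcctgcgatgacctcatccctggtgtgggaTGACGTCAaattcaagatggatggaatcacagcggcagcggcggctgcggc
ZBTB48: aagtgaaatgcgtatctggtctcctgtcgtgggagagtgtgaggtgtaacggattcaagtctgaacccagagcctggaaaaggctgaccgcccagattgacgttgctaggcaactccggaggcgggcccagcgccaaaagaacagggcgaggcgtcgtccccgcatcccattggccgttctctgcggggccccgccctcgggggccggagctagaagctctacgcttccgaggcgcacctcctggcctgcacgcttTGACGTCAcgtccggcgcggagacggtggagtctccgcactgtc
ZBTB2: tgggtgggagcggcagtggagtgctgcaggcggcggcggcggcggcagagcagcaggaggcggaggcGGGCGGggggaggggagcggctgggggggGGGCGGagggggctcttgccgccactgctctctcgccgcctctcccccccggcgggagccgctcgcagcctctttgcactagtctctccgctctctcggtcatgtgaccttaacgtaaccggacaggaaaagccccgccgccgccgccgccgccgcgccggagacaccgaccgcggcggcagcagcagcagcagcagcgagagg

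Windows of 36 members were matched by symbol (70 windows), with none for ZBTB6, ZBTB10, ZBTB16, ZBTB17, ZBTB40 and ZBTB41. The element TGACGTCA, which reads the same on both strands, begins at base 139, 250 and 257 of the windows of ZBTB11, ZBTB21 and ZBTB48, so in ZBTB21 it spans the start and in ZBTB48 it lies past it. Counted by gene, it was in a window of 4 of the 36 members and of 475 of 15843 protein-coding genes. Besides these 3 it was in ZBTB38, which has 10 windows. The AP-1 element TGANTCA was in 4 members and 8.04% of these protein-coding genes, and the Kaiso site TCCTGCNA in 5 members and 6.04% of them. GGGCGG was in 33 of the 36 members and 64.3% of the protein-coding genes. Over all 27305 genes with a window the shares were 2.25% for TGACGTCA, 9.37% for TGANTCA, 5.75% for TCCTGCNA and 48.3% for GGGCGG. These are matches of letters, counted without regard to GC content or to the number of windows a gene has.

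Among the methyl-CpG binding members, Kaiso (ZBTB33) rose and its relatives ZBTB38 and ZBTB4 did not pass the test. ZBTB33 (ENSG00000177485, chromosome X) had 55.6, 59.3 and 69.2 CPM in CC-885 libraries and 38.0, 52.3 and 40.6 CPM in DMSO libraries. The groups did not overlap, but the highest DMSO library came close to the lowest CC-885 library. The log2 fold change was 0.49 (SE 0.15, adjusted p = 0.0172). When CC-885 replicate 3 was left out the adjusted p was 0.0726, and when DMSO replicate 1 was left out it was 0.0822, so that the call was lost in both. Over all settings tried it ranged from 0.00282 to 0.0822.

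ZBTB38 (ENSG00000177311, chromosome 3), which binds single methylated CpG sites, had 93.9, 106 and 184 CPM in CC-885 libraries and 55.1, 61.1 and 92.2 CPM in DMSO libraries. The spread was wide in both groups, with replicate 3 highest in each, and the lowest CC-885 library stood just above the highest DMSO library. The log2 fold change of 0.88 (SE 0.31) missed the threshold (adjusted p = 0.0517). It passed with the replicate number as a block (adjusted p = 0.000532), with limma-voom (0.0245), with the DESeq2 Wald test (0.000886) and without CC-885 replicate 1 (0.0203), within a range of 0.000532 to 0.193 over the settings tried. ZBTB4, the most abundant member per length, stood at 238 ± 1.53 CPM in CC-885 libraries and 241 ± 22.7 CPM in DMSO libraries (log2 fold change -0.02, SE 0.13).

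**Figure D2:**
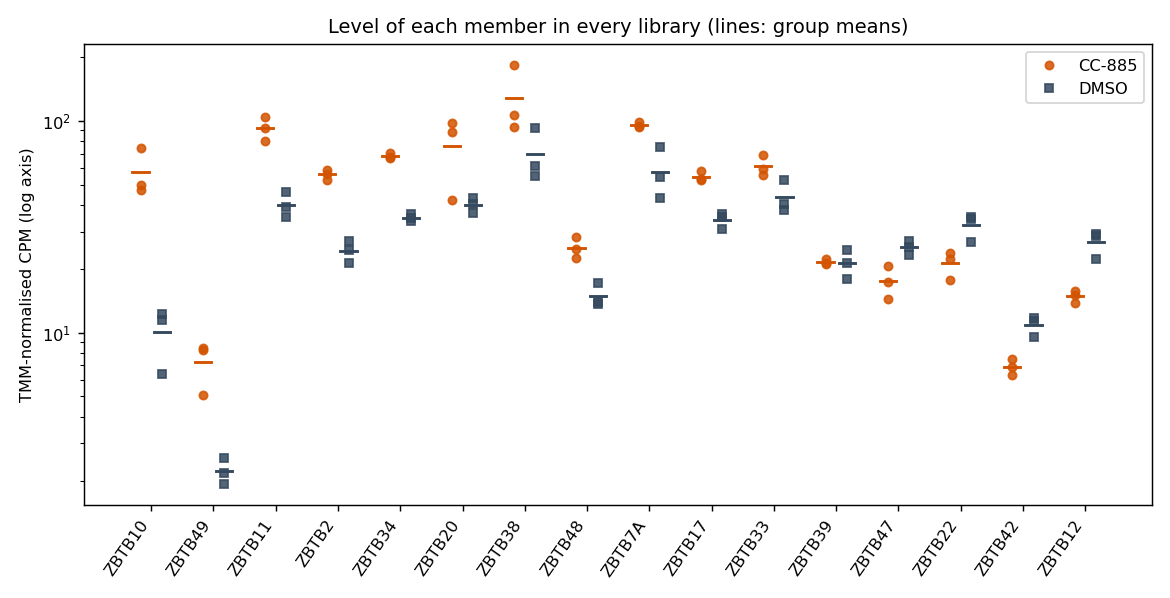
TMM-normalised CPM on a log axis in each of the 3 CC-885 libraries (orange circles) and 3 DMSO libraries (dark squares) for the 16 tested members that the naming rule took for full description, with lines at the group means, ordered by log2 fold change. ZBTB10 shows the widest gap between the groups, while in ZBTB20 the lowest CC-885 library, at 42.3 CPM, lies among the DMSO libraries.

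Of 5 members tied to chromosome structure and telomeres 3 rose and 0 fell (edgeR; also 0 at an unadjusted p below 0.05, with DESeq2 and with limma-voom), beside 25.8% higher and 26.8% lower over all tested genes, and 5 genes are too few to read a share from. ZBTB10 (ENSG00000205189, chromosome 8), which binds telomeric variant repeats and is reported to repress SP1 genes, had 50, 47.3 and 74.6 CPM in CC-885 libraries and 6.40, 12.3 and 11.4 CPM in DMSO libraries. Every CC-885 library was far above every DMSO library. Its log2 fold change of 2.51 (SE 0.29, adjusted p = 0.000218), a 5.72-fold increase, was larger in size than that of all but 2.11% of tested genes. It shares exon bases with an antisense gene, and reads of the pair cannot be told apart where strand was not used in counting, which is not stated.

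ZBTB48 (ENSG00000204859, chromosome 1), also called TZAP, binds telomeric repeats and trims long telomeres. It had 24.8, 28.2 and 22.5 CPM in CC-885 libraries and 17.2, 14.0 and 13.6 CPM in DMSO libraries, with no overlap between the groups (log2 fold change 0.75, SE 0.15, adjusted p = 0.00165). ZBTB43, which in mouse germ cells acts on Z-form DNA, rose by 1.5 on the log2 scale (33.7 ± 7.1 against 11.9 ± 4.48 CPM, adjusted p = 0.00165). ZBTB24, mutated in the immunodeficiency syndrome ICF and a regulator of CDCA7, and ZBTB40 had log2 fold changes of 0.16 and 0.17 and did not pass. ZBTB24 shares exon bases with MICAL1 on its strand.

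The regulators of metabolism, liver genes and the cell cycle held 4 higher and 1 lower member among 7, beside 25.8% higher and 26.8% lower over all tested genes. ZBTB2 (ENSG00000181472, chromosome 6), reported to repress the cell cycle inhibitor gene CDKN1A, had 56.3, 52.5 and 58.7 CPM in CC-885 libraries and 24.6, 21.3 and 26.9 CPM in DMSO libraries. Both groups were tight and more than 2-fold apart (log2 fold change 1.20, SE 0.13, adjusted p = 3.28e-05). ZBTB49 (ENSG00000168826, chromosome 4), reported to activate CDKN1A, had 8.43, 5.10 and 8.25 CPM in CC-885 libraries and 1.93, 2.56 and 2.18 CPM in DMSO libraries. Its level was low, but every CC-885 library held about double the highest DMSO value or more (log2 fold change 1.70, SE 0.23, adjusted p = 0.000126). ZBTB5, a further reported repressor of CDKN1A, did not pass (0.09, SE 0.13), nor did CDKN1A itself (-0.17, adjusted p = 0.638). CDKN1A had 81.5, 90.1 and 173 CPM in CC-885 libraries and 136, 131 and 120 CPM in DMSO libraries. CC-885 replicate 3 lay above all DMSO libraries and the other CC-885 libraries below them.

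ZBTB11 (ENSG00000066422, chromosome 3), which is needed for the expression of nuclear genes of mitochondria, had 80.6, 92.4 and 104 CPM in CC-885 libraries and 35.2, 46.2 and 39.0 CPM in DMSO libraries. The groups were clearly apart (log2 fold change 1.21, SE 0.15, adjusted p = 6.46e-05). It shares exon bases with the antisense gene ZBTB11-AS1.

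ZBTB20 (ENSG00000181722, chromosome 3), the liver repressor named above, had 42.3, 89.0 and 97.1 CPM in CC-885 libraries and 36.7, 43.2 and 40.5 CPM in DMSO libraries. In CC-885 replicate 1 it stood at the DMSO level, and the groups overlapped. The log2 fold change was 0.92 (SE 0.30, adjusted p = 0.0352). Leaving out CC-885 replicate 2 or 3 ended the call (adjusted p = 0.0951 and 0.0794), as did leaving out DMSO replicate 1, 2 or 3 (0.117, 0.116 and 0.179) and testing without a filter on low counts (0.0603). Leaving out CC-885 replicate 1 gave a log2 fold change of 1.22 (adjusted p = 9.36e-05). It shares a long stretch of exon with an unnamed non-coding gene on its strand. Its best known target AFP was at 0 in all libraries.

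ZBTB7C (ENSG00000184828), a relative of ZBTB7A reported to act with p53, fell to 0.468 ± 0.118 CPM with CC-885, against 1.45 ± 0.285 CPM with DMSO (log2 fold change -1.61, SE 0.33, adjusted p = 0.0019). ZBTB18, a repressor known from neurons, did not pass (-0.20, SE 0.14).

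Of the blood and immune lineage factors 7 of 8 were tested, 2 were higher and 1 was lower, against the same background. ZBTB17 (ENSG00000116809, chromosome 1), or MIZ1, which binds MYC and activates the cyclin kinase inhibitor gene CDKN2B, had 53.1, 57.9 and 52.5 CPM in CC-885 libraries and 35.2, 30.9 and 36.1 CPM in DMSO libraries. Both groups were tight and did not overlap (log2 fold change 0.68, SE 0.12, adjusted p = 0.000907). CDKN2B was higher too (45.3 ± 1.63 against 24.5 ± 4.09 CPM, log2 fold change 0.89, adjusted p = 0.000453). Its value is given outside the naming rule, and whether ZBTB17 had a part in it was not tested. ZBTB7A (ENSG00000178951, chromosome 19), or LRF, a repressor of fetal globin and of glycolytic genes, had 93.7, 94.7 and 98.9 CPM in CC-885 libraries and 54.1, 43.1 and 74.9 CPM in DMSO libraries. The CC-885 libraries were close together and the DMSO libraries were not, but the groups did not overlap (log2 fold change 0.74, SE 0.18, adjusted p = 0.00544).

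ZBTB1, a factor of lymphoid development, is given by library after its values were seen. It had 65.4, 91.8 and 80.5 CPM in CC-885 libraries and 42.5, 13.6 and 48.5 CPM in DMSO libraries. All CC-885 libraries were higher, and DMSO replicate 2 stood far below its group. The log2 fold change of 1.19 (SE 0.51) did not pass (adjusted p = 0.109), but without DMSO replicate 2 it was 0.81 with an adjusted p of 0.0025, and with limma-voom the adjusted p was 0.0182 (range over settings 0.0025 to 0.26). Its neighbour ZBTB25, which starts beside it on the other strand and shares exon bases with it, had 0.21 (SE 0.13) and did not pass.

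ZBTB32, a repressor known from lymphocytes, fell to 0.17 ± 0.114 CPM with CC-885, against 0.532 ± 0.106 CPM with DMSO (log2 fold change -1.60, SE 0.53, adjusted p = 0.0238). It rests on few reads, as few as 2 in a library. Leaving out a single library ended its call in 3 cases, with adjusted p = 0.0605 and 0.0842 for CC-885 replicates 1 and 3 and 0.082 for DMSO replicate 2. It also ended without a filter on low counts (0.0512) and under the DESeq2 Wald test (0.0624). With halved counts or a filter of 5 CPM the gene was not tested. ZBTB7B, or ThPOK, the factor of CD4 T cells, was the second most abundant member per length, at 114 ± 7.67 CPM in CC-885 libraries and 143 ± 20.2 CPM in DMSO libraries (-0.33, SE 0.14, adjusted p = 0.067), and it passed as lower without DMSO replicate 2 (adjusted p = 0.0132). ZBTB46, a marker of dendritic cells, had -0.16 (SE 0.15).

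ZBTB16, or PLZF, and ZBTB39 are known from work with thalidomide analogues as proteins that CRBN takes up. ZBTB16 (ENSG00000109906) had 0 counts in every library, which allows up to 0.078 to 0.0999 CPM (3 counts), for counting error only. This limit takes each fragment as counted once and would be higher if fragments were counted more than once. ZBTB39 (ENSG00000166860, chromosome 12) had 21.2, 22.1 and 21.1 CPM in CC-885 libraries and 21.3, 18.0 and 24.5 CPM in DMSO libraries. The CC-885 values lay within the DMSO range (log2 fold change 0.02, SE 0.15, adjusted p = 0.938), and the sign turned with library totals only (-0.041), but not with DESeq2 size factors. These counts measure mRNA and not protein.

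The last role group holds the other 19 members, ZBTB39 among them, of which 18 were tested. Of these 2 were higher and 4 lower, beside 25.8% higher and 26.8% lower over all tested genes. ZBTB34 (ENSG00000177125, chromosome 9) had 66.5, 70.4 and 67.3 CPM in CC-885 libraries and 36.4, 34.6 and 33.5 CPM in DMSO libraries. Both groups were tight and 1.95-fold apart (log2 fold change 0.97, SE 0.12, adjusted p = 5.84e-05). ZBTB21 rose by 0.98 on the log2 scale (SE 0.30, 31.3 ± 6.99 against 15.9 ± 5.86 CPM, adjusted p = 0.0267), and its call ended when CC-885 replicate 3 (adjusted p = 0.0687) or DMSO replicate 2 (0.0776) was left out. It shares exon bases with the antisense gene ZNF295-AS1.

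ZBTB12 (ENSG00000204366, chromosome 6) was the lower member with the smallest p, at 13.9, 15.1 and 15.7 CPM in CC-885 libraries and 28.7, 22.4 and 29.2 CPM in DMSO libraries. Its groups lay well apart (log2 fold change -0.84, SE 0.15, adjusted p = 0.000735), and it shares exon bases with the complement gene C2 on the opposite strand. ZBTB42 (ENSG00000179627, chromosome 14), which is linked to muscle disease, had 6.89, 7.51 and 6.28 CPM in CC-885 libraries and 11.8, 11.3 and 9.58 CPM in DMSO libraries. No CC-885 library reached a DMSO value (-0.66, SE 0.16, adjusted p = 0.0046).

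ZBTB22 (ENSG00000236104, chromosome 6) had 23.7, 22.3 and 17.7 CPM in CC-885 libraries and 34.4, 35.1 and 26.7 CPM in DMSO libraries. The groups were separate, though the gap between the nearest libraries was small (log2 fold change -0.60, SE 0.16, adjusted p = 0.00894). ZBTB47 (ENSG00000114853, chromosome 3) had 20.6, 14.5 and 17.3 CPM in CC-885 libraries and 25.5, 23.3 and 27.0 CPM in DMSO libraries. It was lower in each CC-885 library (-0.53, SE 0.16, adjusted p = 0.0135), and its call ended when CC-885 replicate 2 was left out (adjusted p = 0.0804).

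The remaining members did not pass. Their log2 fold changes were 0.42 for ZBTB14, 0.40 for ZBTB41, 0.27 for ZBTB6, 0.07 for ZBTB8OS, 0.02 for ZBTB8A, -0.05 for ZBTB44, -0.09 for ZBTB3, -0.35 for ZBTB26, -0.36 for ZBTB37 and ZBTB45, and -0.52 for ZBTB9. Some passed when a single library was left out: ZBTB37 and ZBTB26 as lower without CC-885 replicate 3 (adjusted p = 0.0414 and 0.0297), ZBTB45 as lower without DMSO replicate 2 (0.0434), and ZBTB41 and ZBTB6 as higher without DMSO replicate 2 (0.0206 and 0.041). In ZBTB9 a single CC-885 library stood apart, with 7.89, 23.9 and 23.1 CPM in CC-885 libraries and 29.2, 19.9 and 29.6 CPM in DMSO libraries. ZBTB3 varied most among DMSO libraries (8.35, 1.63 and 4.02 CPM), while its CC-885 libraries lay between 4.16 and 4.56 CPM. ZBTB8B had 2 counts in CC-885 replicate 2, 4 counts in DMSO replicate 3 and 0 elsewhere, and was not tested. ZBTB9 and ZBTB3 are given by library after their values were seen.

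**Figure D3:**
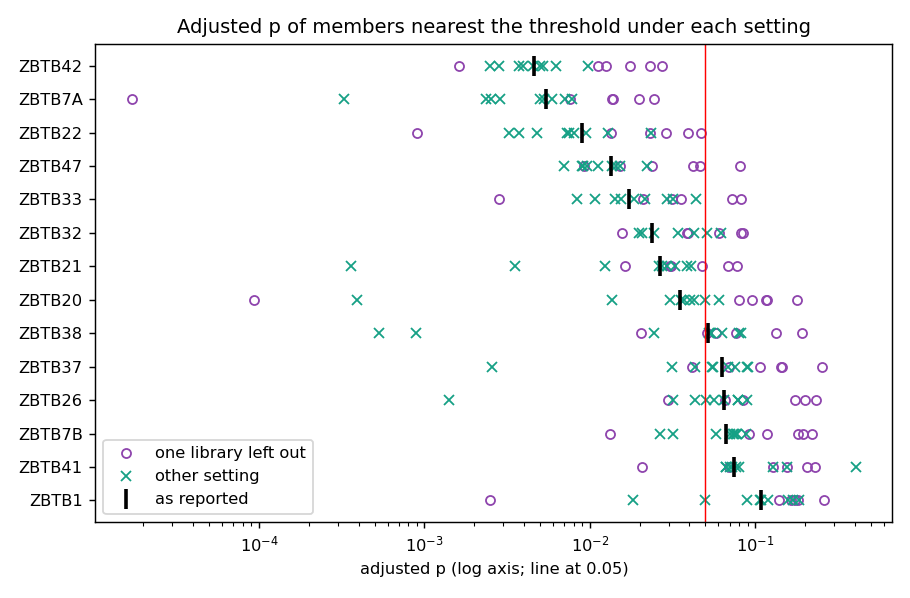
Adjusted p (log axis, red line at 0.05) of the 14 members whose value as reported (black bar) lay between 0.003 and 0.12, with the values when a single library was left out (open circles) and under the other settings (crosses). ZBTB42, ZBTB7A and ZBTB22 stayed left of the line in all settings run, while ZBTB20 crossed it in 6 of 15.

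Of the 18 calls, 9 higher and 4 lower held under all settings run that tested the gene. The 9 were ZBTB2, ZBTB34, ZBTB11, ZBTB49, ZBTB10, ZBTB17, ZBTB48, ZBTB43 and ZBTB7A, and the 4 were ZBTB12, ZBTB7C, ZBTB42 and ZBTB22.

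Several members lie next to each other in the genome (within 100 kb in the RefSeq annotation). ZBTB43 and ZBTB34 on chromosome 9 both rose, with log2 fold changes of 1.5 and 0.97. ZBTB6 and ZBTB26, also on chromosome 9, had 0.27 and -0.35, and ZBTB8A and ZBTB8OS on chromosome 1 had 0.02 and 0.07, and none of these passed.

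The called members also differed in base composition, which the rule did not use. The longest annotated transcript had a median GC content of 43.2% in the 12 higher members, 61.7% in the 6 lower ones and 44.2% in all 40. All 6 lower members were among the 14 with a GC content of at least 54%, where ZBTB17, ZBTB48 and ZBTB7A were higher. Among the 26 members below that value 9 were higher and 0 lower (edgeR; 2 at an unadjusted p below 0.05, ZBTB37 and ZBTB26, and 0 with DESeq2 or limma-voom). ZBTB37 and ZBTB26 passed as lower with library totals only (adjusted p = 0.0434 and 0.0432), with the CPM filter of 5 (0.0312 and 0.0318) and when CC-885 replicate 3 was left out (0.0414 and 0.0297). The value of 54% was set after the calls were seen, just under the lowest GC content of a lower member (54.3%, ZBTB7C), so the split describes these calls and tests nothing. Of all tested genes with a GC content of at least 54%, 19.1% were higher and 34.0% lower, and of those below it 29.4% were higher and 23.0% lower. Across the 40 members, which share the 6 libraries, Spearman's rho between log2 fold change and GC content was -0.472 and Pearson's r -0.462. The change also went with level and length, with rho 0.394 for mean CPM and 0.367 for exon length. Higher members had a median of 42.2 CPM and 6165.5 exon bases, and lower members 14.9 CPM and 3275.5 exon bases. Which of these traits matters was not tested. Over all tested genes rho with GC content was -0.19, with a median GC content of 45.9% in higher and 52.1% in lower genes. GC content and transcript length were also used as offsets, an alternative added after the data were seen. With them 12 members were higher and 10 lower, and the members' median log2 fold change was 0.02. ZBTB37, ZBTB26, ZBTB18 and ZBTB44, all below 54% GC, then passed as lower. Calls among all tested genes also became more frequent with these offsets, both higher and lower. The rise to 10 lower members was not tested against that background and is not particular to the members.

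**Figure D4:**
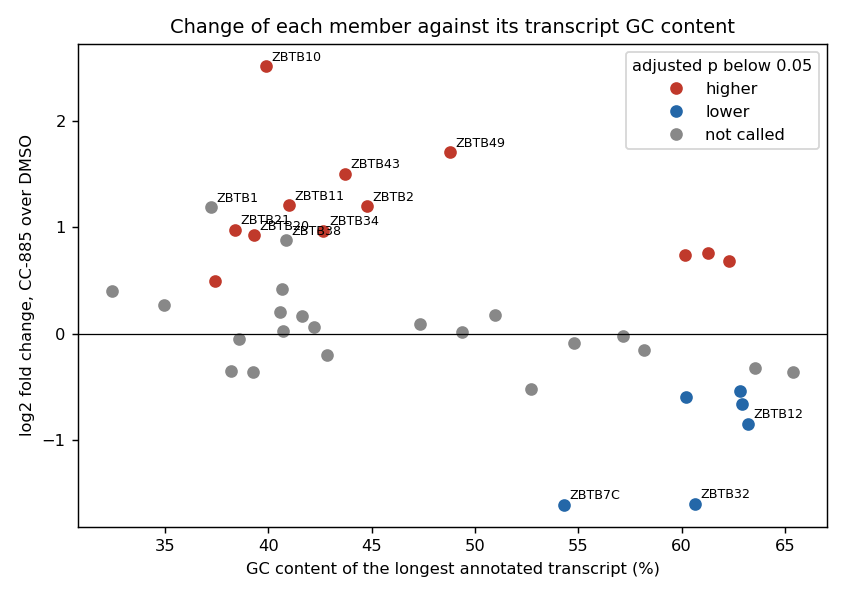
Log2 fold change (CC-885 over DMSO, vertical axis) of the 40 tested members against the GC content of the longest annotated transcript, coloured by call; members beyond 0.8 in either direction are named. The blue points, which were called lower, all lie at 54.3% or more, and 9 of the 12 red points lie below 50%.

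Per kilobase of annotated exon ZBTB4 was the most abundant member in both groups, with 38.9 CPM per kb with CC-885 and 39.4 CPM per kb with DMSO, followed by ZBTB7B with 26.5 and 33.2 CPM per kb. The next in order differed. With CC-885 ZBTB2 had rank 3 with 18.1 CPM per kb, against rank 12 and 7.86 CPM per kb with DMSO. ZBTB12 held rank 13 with CC-885 (7.95 CPM per kb) and rank 3 with DMSO (14.3 CPM per kb). ZBTB10 stood at rank 19 with 5.61 CPM per kb with CC-885 and at rank 37 with 0.982 CPM per kb with DMSO. Exon lengths are the union of all annotated transcripts, which lowers the value of genes with many isoforms such as ZBTB20 (31872 bases).

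**Figure D5:**
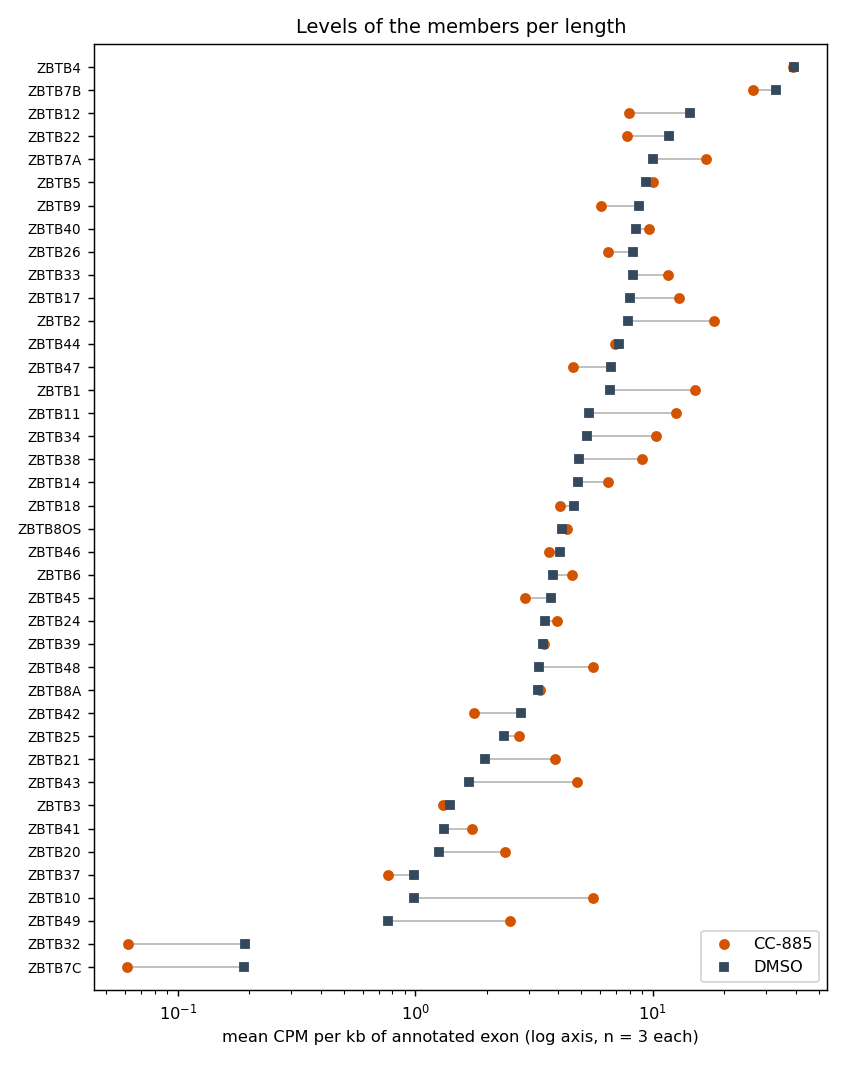
Mean CPM per kb of annotated exon (log axis) with CC-885 (orange circles) and with DMSO (dark squares) for the 40 tested members, ordered by the DMSO level. ZBTB4 and ZBTB7B lead in both groups, and ZBTB10 and ZBTB49, near the bottom with DMSO, show long steps to the right.

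The same protein architecture occurs in 8 genes with other symbols, of which 5 were higher and 0 lower (edgeR; also 0 at an unadjusted p below 0.05, with DESeq2 and with limma-voom; median log2 fold change 0.51), beside 25.8% higher and 26.8% lower over all tested genes. BCL6, the repressor of germinal centre B cells, had 57.1, 65.6 and 61.7 CPM in CC-885 libraries and 18.4, 13.5 and 23.7 CPM in DMSO libraries. It showed the largest change of the 8, with each CC-885 library far above each DMSO library (log2 fold change 1.73, SE 0.19, adjusted p = 3.29e-05); it overlaps antisense genes. ZNF131 (0.95, adjusted p = 0.000279), GZF1 (0.58, adjusted p = 0.00366), MYNN (0.57, adjusted p = 0.0168) and PATZ1 (0.46, adjusted p = 0.0239) were also higher. The call of MYNN ended when CC-885 replicate 3 (adjusted p = 0.0567) or DMSO replicate 1 (0.0668) was left out, and that of PATZ1 when CC-885 replicate 1 (0.0627) or replicate 2 (0.0845) was. MYNN overlaps an antisense gene. HIC1 (0.35), HIC2 (0.32) and BCL6B (-0.71) did not pass. The 8 genes were listed with earlier results of these data known, so their counts beside the background test nothing.

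Of 24 genes of corepressor complexes that BTB domains and their zinc finger proteins recruit, 6 were higher and 5 lower (45.8% called, beside 52.6% of all tested genes, 25.8% higher and 26.8% lower; median log2 fold change 0.19). The share is near the background, so the genes below are given for their own values. The scaffolds SIN3A (136 ± 0.442 against 78.3 ± 9.42 CPM, log2 fold change 0.80, adjusted p = 0.000409), RCOR1 (0.76, adjusted p = 0.00119) and BCOR (0.71, adjusted p = 0.0111) and the NuRD subunit MTA2 (0.50, adjusted p = 0.0119) were higher. The deacetylases HDAC1 (119 ± 6.15 against 216 ± 13.7 CPM, -0.86, adjusted p = 0.000202) and HDAC4 (-0.60, adjusted p = 0.00234), the corepressor CTBP1 (-0.69, adjusted p = 0.00112) and the NuRD subunit MBD3 (-0.62, adjusted p = 0.00146) were lower. MTA2 missed the threshold when CC-885 replicate 2 was left out (adjusted p = 0.0603). The number of higher genes of this list was 3 without CC-885 replicate 2 and 10 without DMSO replicate 3. SIN3A, HDAC4 and CTBP1 overlap genes on the opposite strand, and MBD3 overlaps genes on both strands.

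Of 9 partners of ZBTB proteins 3 were higher and 0 lower (edgeR; also 0 at an unadjusted p below 0.05, with DESeq2 and with limma-voom). These were GFI1 (log2 fold change 1.05, adjusted p = 0.00229) and TOPBP1 (0.56, adjusted p = 0.0074), both of which bind ZBTB17, and MYC (0.42, 28.9 ± 1.25 against 21.6 ± 3.17 CPM, adjusted p = 0.0287). The call of MYC ended in 6 of the 15 other settings: when any one CC-885 library was left out (adjusted p = 0.0655, 0.0584 and 0.0824), without DMSO replicate 1 (0.144), with library totals only (0.0585) and with the CPM filter of 5 (0.0558). Of 16 genes reported as targets of ZBTB factors 14 were tested, 7 were higher and 0 lower (edgeR; WNT11 at an unadjusted p below 0.05, and 0 with DESeq2 and limma-voom). SLC2A3, a glucose transporter gene that ZBTB7A is reported to repress, had the smallest p (164 ± 10.9 against 40.2 ± 3.26 CPM, log2 fold change 2.03, adjusted p = 9.64e-07). MCM10, a replication factor gene reported as repressed by ZBTB38, was higher as well (1.19, adjusted p = 1.81e-05), as were the asparagine synthetase gene ASNS (1.02), which needs ZBTB1 in leukaemia cells, and its activator ATF4 (1.39). ASNS overlaps another gene on its strand. Over all tested genes 25.8% were higher and 26.8% lower. The partner and target lists were chosen with earlier results of these data known, so their counts beside these shares test nothing.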

How the data were processed

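Counts were deposited by the authors as whole numbers per gene for 6 libraries, unnormalized (from the values and column names). For the aligner, counting program and annotation nothing is given in the sources used here. In the submitters' processing notes the builds are GRCm38 and mm10, of mouse, whereas the identifiers are human Ensembl genes. Of counts from 1 to 20, 66.8% were even, so a fragment may have been counted more than once. Symbols came from a gene name table (20148 rows) or GENCODE 29 (76), and 39 rows had none. Lengths, GC content and shared exons came from GENCODE 29, promoter windows from RefSeq.

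The fit used edgeR 4.0.16 (R 4.3.3) with TMM factors, a minimum count of 10 (filterByExpr), robust dispersions and no covariate. It was also run on simulated data with 200 changed genes, far fewer than were called here. That run therefore cannot test the scaling or the calls where so many genes change. Benjamini-Hochberg adjustment ran over 13444 genes. Standard errors are the size of the log2 fold change divided by the root of F. Alternatives used DESeq2 1.42.0, limma 3.58.1, other scalings and filters, a replicate block and each library left out. Halved counts and the offsets for GC content and transcript length were added later.

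Members and lists were chosen with earlier results of these data known. The naming rule took up to 7 higher and 7 lower members with the smallest p and a mean CPM of at least 1, plus ZBTB7A, ZBTB16, ZBTB17, ZBTB20, ZBTB33, ZBTB38 and ZBTB39, for full description, and of the other lists up to 4 called genes in each direction.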

Additional observations from a re-analysis of the deposited data

How the results depend on the processing

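With a single library left out, 9 to 13 members were higher and 5 to 7 lower, the members' median log2 fold change ran from 0.091 to 0.19, and 3 to 10 corepressor genes were higher. The median was 0.071 with library totals only and 0.016 with GC content and transcript length as offsets, which gave 10 lower members. More of all tested genes were also called lower in both of these settings than in the main fit. The members' counts in the settings were not tested against those of all genes. With the replicate block 13 members were higher and 6 lower. The replicate numbers are not said to mark a shared culture, and deviations of same-numbered libraries correlated at 0.0958, 0.0311 and 0.0722, with CC-885 replicate 2 closest to DMSO replicate 1. The DESeq2 Wald test gave 13 and 5, limma-voom 14 and 6. With halved counts 39 members were tested, of which 12 were higher and 5 lower. ZBTB37, ZBTB26 and ZBTB7B passed as lower both with library totals only and with a filter that keeps genes reaching 5 CPM in 3 or more libraries.

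Reversals of sign occurred in 7 members, none of them called as reported. With GC and length offsets the log2 fold change was -0.017 for ZBTB25, -0.038 for ZBTB24, 0.026 for ZBTB3, -0.20 for ZBTB8A and -0.054 for ZBTB39. With library totals only it was -0.0445 for ZBTB8A and -0.041 for ZBTB39, and with the CPM filter of 5 it was -0.0446 for ZBTB8A and -0.0498 for ZBTB39. ZBTB3 had 0.17 with the replicate block and 0.20 with limma-voom. With a library left out the values ran from -0.11 to 0.00998 for ZBTB44, -0.49 to 0.65 for ZBTB3, -0.088 to 0.17 for ZBTB8A, -0.072 to 0.0498 for ZBTB4 and -0.081 to 0.13 for ZBTB39. The causes were not tested.

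Depth limits ZBTB16 and ZBTB8B, which had too few counts to test, and ZBTB32 and ZBTB7C, which had under 2 CPM in every library.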
